A study of Rattus norvegicus with 6 samples.

Results

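The genes described here encode the enzymes that build, extend and cap mucin-type O-glycans, together with the sialyltransferases, fucosyltransferases and carbohydrate sulfotransferases that finish these and related chains. They were taken by symbol alone, as every listed gene of the Galnt, B3gnt, B3galt, B4galt, Gcnt, C1galt1, St3gal, St6gal, St8sia, Fut, Chst and A3galt or A4galt families, which gave 78 of 15679 rows. Of these 78 genes, 64 passed the filter on low reads and were tested, and the other 14 are given by their reads at the end. RNA came from pancreatic duct glands of Sprague-Dawley rats, in 3 libraries of wild-type animals (WT26, WT1 and WT4, named by group and the number in the title) and 3 of HIP animals (HIP30, HIP2 and HIP3), transgenic rats that express HIAPP, the human islet amyloid polypeptide, and were pre-diabetic. The comparison asked whether the gland transcriptome differs in a model of type 2 diabetes. As background, this transgene is directed to beta cells, so the glands themselves are not its site of expression. Ages are not given in the sources used here, and no treatment is named in the labels for either group. Glands were recognised by their morphology and cut out by laser capture, so other cells beside them can be in the sample. Whether the 6 libraries stem from 6 animals is not stated, and p-values therefore measure a spread between libraries that may be technical. Values for single libraries are always given in the order WT26, WT1, WT4 and then HIP30, HIP2, HIP3.

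Mucin-type O-glycosylation starts in the Golgi, where a polypeptide GalNAc-transferase puts GalNAc on a serine or threonine of a mucin. A core enzyme then adds galactose or GlcNAc, branching enzymes open further arms, and alternating galactose and GlcNAc transfers lengthen them. Sialic acid, fucose or sulfate closes the chain, and these caps set the charge of the mucus and carry blood group and Lewis antigens. Pancreatic duct glands are mucin-secreting pockets of the duct wall. Several enzymes found by the symbol rule act mainly on other glycans, such as gangliosides, proteoglycans and N-glycans. A list fixed by hand held 14 such genes, 11 of them tested, and is not complete, since St6gal1 and A3galt2 are not on it. Another list held 7 chondroitin and dermatan sulfotransferases, 5 of them tested. All are counted in the steps, and only part of them are named as such below.

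Library totals lay between 15141136 and 17574682 reads on the listed genes, so that 1 read was worth 0.0569 to 0.066 CPM. Levels below are CPM, a gene's reads relative to all reads of its library, scaled by TMM factors of 0.933 to 1.09. Differences are HIP minus WT on the scale of log2(CPM + 0.121), given with ± 1 standard error of limma's fit, which understates the change of genes with few reads. Levels are not per transcript length and are therefore not ranked between genes. The libraries carried duct and mucous gland markers, with the duct keratin genes Krt19, Krt8 and Krt18 highest in WT26. Summed over 8 duct epithelial markers the level was 26770.2, 14789.5 and 10351 CPM (WT) against 10595, 10219 and 13006 CPM (HIP). Over 6 mucous gland markers it was 1255, 1123 and 841 CPM (WT) against 1589, 1137 and 999 CPM (HIP). The mucous gland markers did not move together. Tff1 stood at 297, 287 and 64.3 CPM (WT) against 0, 25.6 and 192 CPM (HIP), while the other 5 had a positive difference. Islet transcripts stood apart in single libraries, with a sum over 9 markers of 0, 132 and 11444 CPM (WT) against 289, 361 and 5090.1 CPM (HIP). In WT4 and HIP3 this sum was mostly Ins1, at 7760 and 3717 CPM. Sst had another order, at 0, 27.6 and 35.0 CPM (WT) against 246, 172 and 10.2 CPM (HIP). In bulk tissue, fewer cells of a type and less RNA per cell cannot be told apart.

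No transferase gene passed the test for a difference between HIP and wild-type glands. Of 12102 genes tested, limma called 0 (0%) at an adjusted p of 0.05, and 0 of the 64 members were among them, with Benjamini-Hochberg adjusted p from 0.691 to 0.999. At an unadjusted p under 0.05, 3 members were higher in HIP (Fut9, St3gal1 and St8sia3), where 3.29% of all tested genes were, and 6 were lower (Chst4, Fut1, St3gal5, Galntl1, B3gnt3 and Galnt6), where 3.26% of all tested genes were. limma-voom on the recovered reads also called 0 members and gave 8 at an unadjusted p under 0.05. In that fit these were 12.5% of the tested members, where 7.55% of all tested genes were under the same threshold. Every HIP library lay above every wild-type library for 3 members (Fut9, St8sia3 and B3gnt5), against 5.27% of all tested genes, and below for 5 (Chst4, Fut1, St3gal5, Galntl1 and Galnt13), against 4.27%. Those 8 genes are 12.5% of the tested members, and all genes tested gave 9.54%. Across the 64 members 38 differences were positive and 26 negative, with a median of 0.11, and over all tested genes the median was 0.0097. The number of members at an unadjusted p under 0.05 was 9 with all libraries. Leaving out WT26 gave 2, leaving out WT1 gave 5, leaving out HIP30 gave 4 and leaving out HIP2 gave 3, whereas 13 were found when WT4 was dropped and 18 when HIP3 was dropped, with 0 called in each. All tested genes moved the same way, from 6.54% with all libraries to 13.3% without WT4 and 14.9% without HIP3, and to between 1.94% and 2.79% without any of the others, where the members went from 14.1% to 20.3%, 28.1% and between 3.12% and 7.81%.

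**Figure D1:**
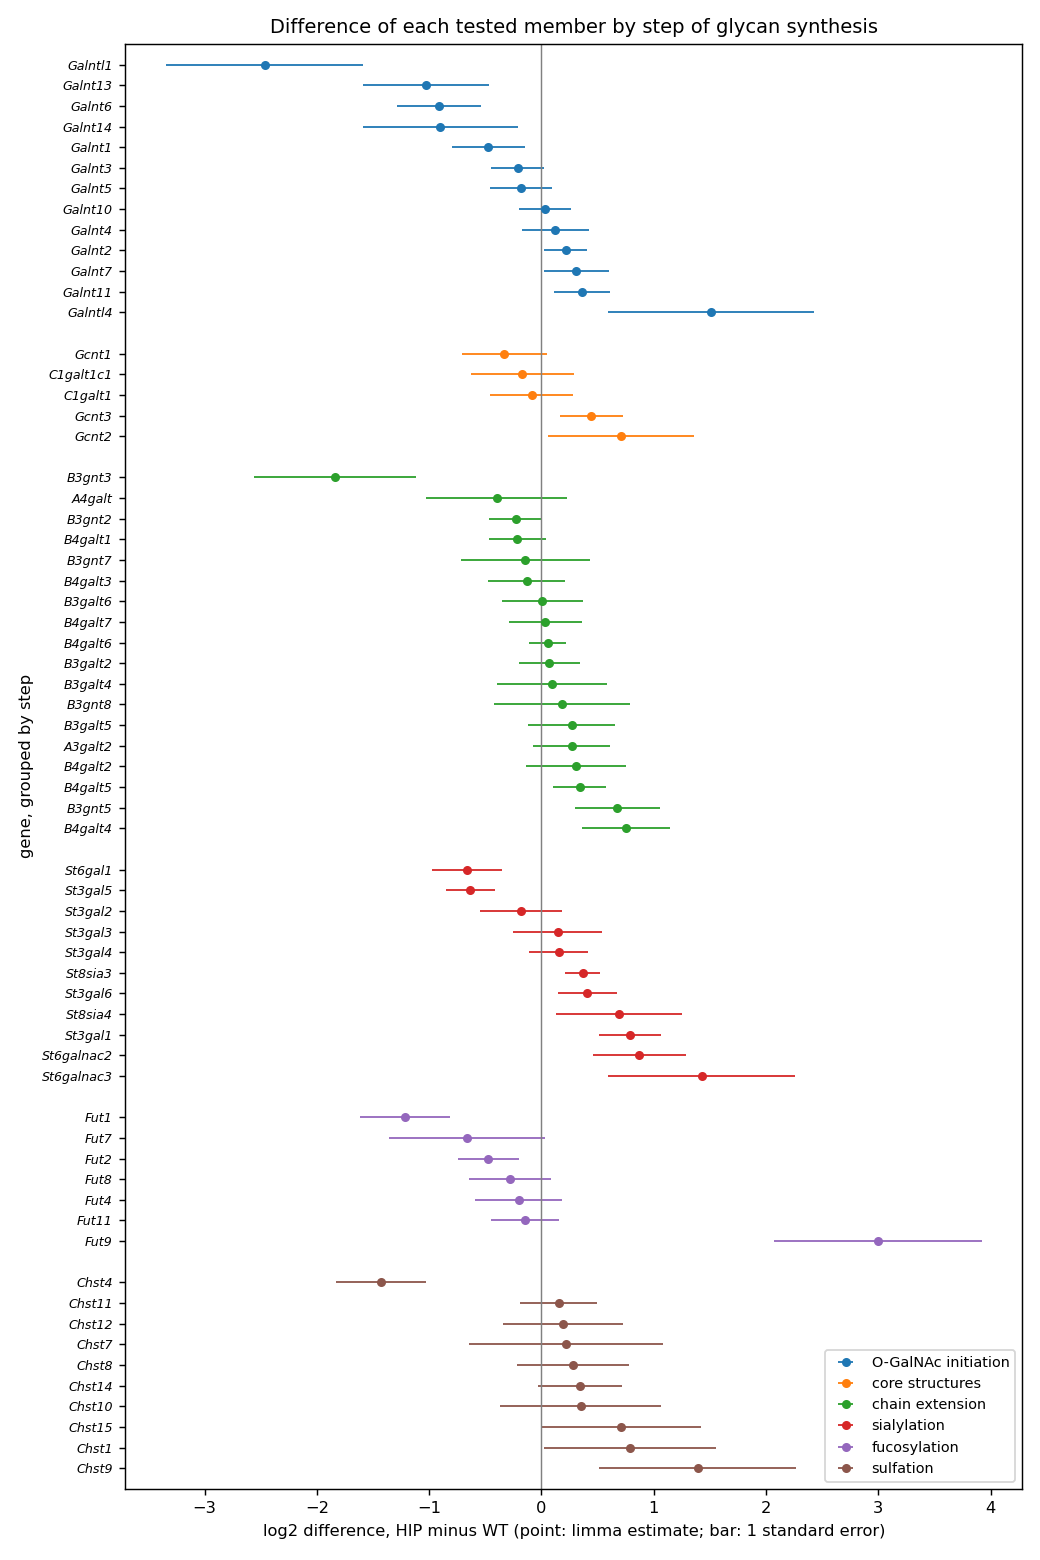
Log2 difference of HIP minus WT on the x axis for each of the 64 tested members, in blocks by step of glycan synthesis on the y axis, with the limma estimate as a point and 1 standard error as a bar (n = 3 libraries a group). Fut9 lies farthest to the right at 2.99 and Galntl1 farthest to the left at -2.47, and none passed the test.

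The first step, transfer of GalNAc to the mucin protein, showed both signs among its enzymes. Of 15 listed polypeptide GalNAc-transferases 13 were tested, 6 with a positive and 7 with a negative difference, and their median was -0.18. Galnt6 stood at 73.3, 65.9 and 33.0 CPM (WT) against 23.3, 23.5 and 43.0 CPM (HIP). HIP30 and HIP2 lay below all wild-type libraries and HIP3 lay inside their range, which gave a difference of -0.92 ± 0.38. Galntl1, named Galnt16 in the RefSeq annotation, stood at 2.56, 1.60 and 2.43 CPM (WT) against 0, 0.733 and 0.551 CPM (HIP), with 0 reads in HIP30. A count of 0 there allows up to 3 reads or 0.198 CPM before TMM scaling, for counting error only. All HIP libraries were lower than all wild-type libraries for this gene, and the fitted difference of -2.47 ± 0.88 depends on the pseudocount. Galnt13, an enzyme best known from the nervous system, stood at 2.03, 3.93 and 2.67 CPM (WT) against 1.09, 0.977 and 2.02 CPM (HIP), a difference of -1.03 ± 0.56, and its groups overlapped when library totals replaced TMM factors.

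The transferases of this family with the most reads overlapped between the groups. Galnt5 stood at 175 ± 40.2 CPM in wild type and 157 ± 48.1 CPM in HIP (SD, n = 3), Galnt3 at 139.9 ± 31.5 and 121 ± 25.0 CPM, and Galnt1 at 135 ± 53.8 and 92.8 ± 20.1 CPM. Their differences were -0.18 ± 0.27, -0.21 ± 0.24 and -0.48 ± 0.33, and that of Galnt5 turned its sign without HIP30. Galnt2, a broadly expressed initiating enzyme, differed by 0.21 ± 0.20. Galnt7, which acts on peptides that already carry GalNAc, differed by 0.31 ± 0.29, and Galnt11 by 0.36 ± 0.25. Galntl4, named Galnt18 in RefSeq, had the highest positive value of the step, 1.51 ± 0.92, from 1.79, 0.491 and 4.44 CPM (WT) against 10.8, 6.23 and 1.65 CPM (HIP). HIP3 stood within the wild-type range of this gene, and HIP30 and HIP2 above it.

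Core enzymes shared no common order of the libraries, and the groups overlapped for each tested gene. Gcnt3, the mucin-type branching enzyme that makes core 2 and core 4, stood at 926, 1021 and 851 CPM (WT) against 1592, 1459 and 874 CPM (HIP). HIP30 and HIP2 were above every wild-type library, and HIP3 lay between WT4 and WT26, so the groups overlapped with a difference of 0.45 ± 0.28 (limma, adjusted p = 0.716). Gcnt1, the other core 2 enzyme, showed the reverse order, at 63.9, 72.7 and 64.8 CPM (WT) against 30.1, 52.3 and 95.5 CPM (HIP). HIP30 and HIP2 were below the narrow wild-type range and HIP3 above it, and the difference of -0.33 ± 0.38 turned its sign without HIP30. Gcnt2, which makes I branches, stood at 4.48 ± 3.93 CPM in wild type and 5.82 ± 1.21 CPM in HIP, a difference of 0.71 ± 0.65.

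Core 1 synthase C1galt1 stood at 74.5, 135 and 67.8 CPM (WT) against 52.0, 123 and 89.3 CPM (HIP), and its chaperone C1galt1c1, without which the synthase is not folded, at 20.2, 53.2 and 37.2 CPM (WT) against 17.1, 38.7 and 42.5 CPM (HIP). Both genes were lowest in HIP30 and highest in WT1, and the groups overlapped, with HIP30 below the wild-type range and WT1 above the HIP range. Their differences of -0.088 ± 0.37 and -0.17 ± 0.46 were smaller than their standard errors and changed sign when WT1 or HIP30 was left out. B3gnt6, the core 3 enzyme of mucous epithelium, was not tested, and had 8, 1 and 5 reads (WT) against 29, 39 and 2 reads (HIP). Of 6 core genes 5 were tested, 2 with a positive and 3 with a negative difference.

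**Figure D2:**
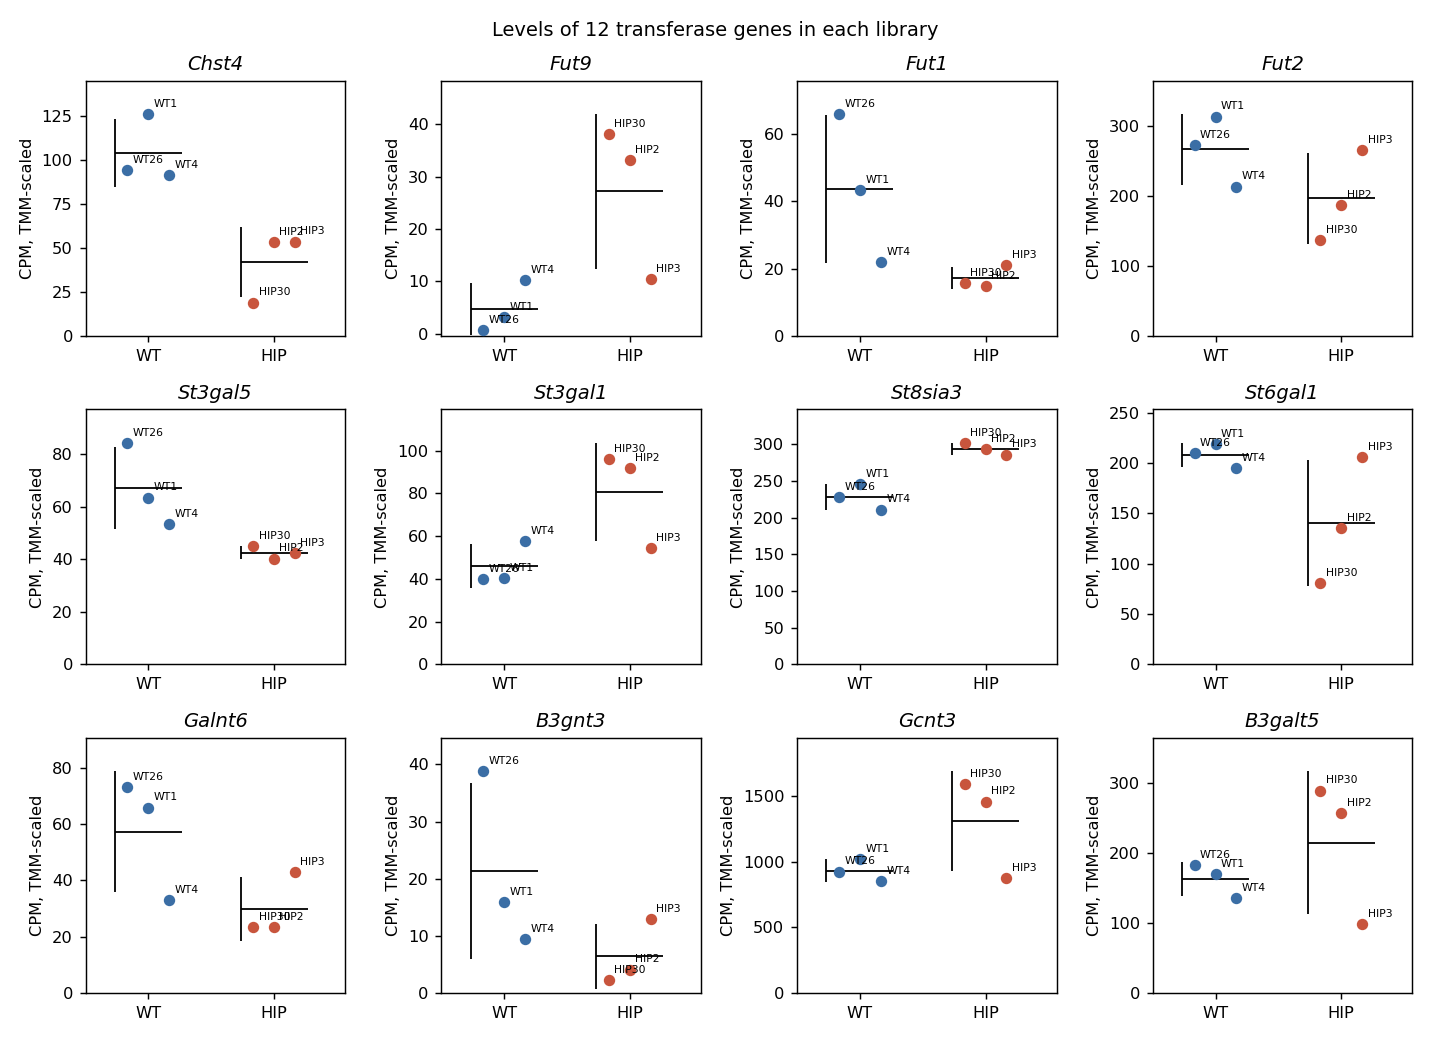
Level of 12 transferase genes (y axis, TMM-scaled CPM) in each of the 3 WT and 3 HIP libraries (points), with the mean as a horizontal line and 1 SD as a vertical line. Chst4, Fut1, St3gal5, St8sia3 and Fut9 show no overlap between groups, whereas HIP3 lies within the wild-type range or on its other side for St6gal1, Gcnt3 and B3galt5.

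Among the enzymes of chain extension, B3gnt3 alone had an unadjusted p under 0.05. B3gnt3, which lengthens core 1 arms and builds sites for sulfated ligands, stood at 38.8, 15.9 and 9.48 CPM (WT) against 2.25, 4.09 and 12.9 CPM (HIP). HIP30 and HIP2 were below all wild-type libraries while HIP3 stood above WT4, and the difference was -1.84 ± 0.72. B3gnt2, the main polylactosamine enzyme, stood at 88.2 ± 8.25 CPM in wild type and 77.0 ± 22.8 CPM in HIP, a difference of -0.23 ± 0.23. B3gnt5, which starts lacto-series glycolipids, stood at 4.17, 7.98 and 7.54 CPM (WT) against 9.60, 10.5 and 10.4 CPM (HIP), with every HIP library above every wild-type library and a difference of 0.67 ± 0.38. Its wild-type levels spread over nearly the same distance as the group means are apart, since WT26 was the lowest.

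Among the galactosyltransferases, B4galt4, which prefers sulfated GlcNAc, stood at 19.5, 44.6 and 33.4 CPM (WT) against 60.4, 71.1 and 32.4 CPM (HIP), a difference of 0.75 ± 0.39 with HIP3 below WT1 and WT4. B3galt5, which makes type 1 chains, stood at 182, 170.2 and 135 CPM (WT) against 289, 257 and 98.6 CPM (HIP). HIP3 was the lowest of all 6 libraries and HIP30 and HIP2 the highest, and the difference of 0.27 ± 0.39 turned its sign without HIP30. B4galt6, a lactosylceramide synthase, stood at 243 ± 18.9 CPM in wild type and 252 ± 26.2 CPM in HIP, a difference of 0.054 ± 0.17. B4galt1, the widely used galactosyltransferase of N-glycans and O-glycans, differed by -0.22 ± 0.25. B4galt5, which was listed with the glycolipid enzymes as B4galt6 was, differed by 0.34 ± 0.23, and A3galt2, which makes a glycolipid with terminal alpha-galactose, by 0.27 ± 0.34. Of 20 extension genes 18 were tested, 12 with a positive and 6 with a negative difference and a median of 0.062.

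Sialyltransferases held 3 of the 9 members with a low unadjusted p, with 2 higher and 1 lower in HIP. St3gal1, which caps core 1 with sialic acid, stood at 39.8, 40.5 and 57.7 CPM (WT) against 96.0, 91.9 and 54.4 CPM (HIP). HIP30 and HIP2 stood above all wild-type libraries, and HIP3 stood between WT1 and WT4, for a difference of 0.79 ± 0.28 that ran from 0.64 to 1.05 with each library left out. St3gal5, the GM3 synthase that opens ganglioside synthesis and is not a mucin enzyme, stood at 84.5, 63.6 and 53.6 CPM (WT) against 45.1, 40.3 and 42.4 CPM (HIP). All 3 HIP libraries were lower than all wild-type libraries, with an SD of 2.41 CPM among them, and the difference was -0.63 ± 0.22. St8sia3, an alpha2,8-sialyltransferase best known from brain, stood at 228, 245 and 211 CPM (WT) against 302, 294 and 286 CPM (HIP). This difference of 0.37 ± 0.16 was small, yet every HIP library was above every wild-type library, and with each library left out it ran from 0.31 to 0.42.

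St6gal1, which adds alpha2,6-linked sialic acid mainly to N-glycans, was even across the wild-type libraries and HIP3 and lower in the other HIP libraries, at 210.0, 219 and 195 CPM (WT) against 81.0, 135 and 206 CPM (HIP). Its difference was -0.66 ± 0.31 (limma, adjusted p = 0.691). St6galnac2, which adds sialic acid to the GalNAc of O-glycans, stood at 14.1, 21.4 and 43.3 CPM (WT) against 52.3, 48.4 and 32.0 CPM (HIP), a difference of 0.87 ± 0.42 with WT4 inside the HIP range. St3gal4 and St3gal6, which cap N-acetyllactosamine arms, differed by 0.15 ± 0.26 and 0.41 ± 0.26, and St3gal4 turned its sign without HIP30. St6galnac3, an enzyme of gangliosides and O-glycans, stood at 2.43 ± 2.74 CPM in wild type and 5.16 ± 2.85 CPM in HIP, a difference of 1.43 ± 0.83. Of 16 sialyltransferase genes 11 were tested, 8 with a positive and 3 with a negative difference and a median of 0.37.

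Fucosyltransferases showed Fut1 and Fut9 on opposite sides. Fut1, which makes the H antigen, stood at 65.8, 43.4 and 21.8 CPM (WT) against 15.7, 14.8 and 21.0 CPM (HIP). All HIP libraries were lower, but HIP3 and WT4 lay within 1 CPM of each other, and the difference was -1.22 ± 0.40. Fut2, the secretor enzyme that makes the H antigen of mucous epithelia, stood at 273, 314 and 214 CPM (WT) against 137, 187 and 266 CPM (HIP). Here HIP3 lay inside the wild-type range and the groups overlapped, with a difference of -0.47 ± 0.27. Abo, the blood group transferase that acts on the H antigen and is not found by the symbol rule, stood at 34.8, 21.2 and 11.8 CPM (WT) against 4.13, 7.51 and 10.7 CPM (HIP), with every HIP library lower and a difference of -1.55 ± 0.50 (limma, adjusted p = 0.691). Fut1, Abo and B3gnt3 were each highest in WT26 and lowest of the wild-type libraries in WT4, the order also seen in the summed duct markers. The part of duct cell content in the differences was not tested.

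Fut9, which makes Lewis x on distal GlcNAc, stood at 0.656, 3.13 and 10.3 CPM (WT) against 38.1, 33.2 and 10.4 CPM (HIP). HIP30 and HIP2 stood above every wild-type library, while HIP3 and WT4 differed by less than 2 reads' worth of CPM, and the groups overlapped when library totals replaced TMM factors. The difference of 2.99 ± 0.93 was the highest of the 64 members and ran from 2.03 to 3.90 with each library left out. Fut8, which puts core fucose on N-glycans, differed by -0.28 ± 0.37 and turned its sign without HIP30. Of 7 fucosyltransferase genes, all tested, 6 had a negative difference and 1, Fut9, a positive one, with a median of -0.28.

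Sulfotransferases were led by Chst4. Chst4, which sulfates terminal GlcNAc on mucin O-glycans and so builds sulfomucins and ligands of L-selectin, had the lowest unadjusted p of all 64 members. It stood at 94.1, 126 and 91.2 CPM (WT) against 19.0, 53.5 and 53.7 CPM (HIP). Every HIP library was below every wild-type library, with HIP30 the lowest, and the difference of -1.43 ± 0.40 missed the threshold (limma, adjusted p = 0.691) and ran from -1.68 to -0.94 with each library left out. Between the libraries numbered 26 and 30 it was -2.30 and between those numbered 1 to 4 it was -0.9995. Chst9, which sulfates terminal GalNAc, stood at 0.954, 8.54 and 12.5 CPM (WT) against 11.97, 19.8 and 8.64 CPM (HIP), a difference of 1.39 ± 0.88, with WT26 far below the other 5 libraries. Chst1, which sulfates galactose, had few reads and differed by 0.79 ± 0.77. Chst11, a chondroitin sulfotransferase and no mucin enzyme, differed by 0.15 ± 0.34, and its sign turned without WT26. Of 13 sulfotransferase genes 10 were tested, 9 with a positive difference and 1, Chst4, with a negative one. Of the 9, 5 are chondroitin and dermatan sulfotransferases, Chst11 among them. Only 5 of the 10 kept their sign with each library left out.

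The promoters of Chst4, Fut2 and Fut9 are shown because Chst4 and Fut9 hold the lowest unadjusted p of their direction and Fut2 is the main H-antigen enzyme of mucous epithelia. The windows run from 250 bases before to 50 bases after a RefSeq start of each gene in the GRCr8 build, 5′ to 3′, with motif matches in capitals, and Fut1 is named only. Chst4 lies at chr19:54911523-54911822, Fut2 at chr1:105275978-105276277 and Fut9 at chr5:44361160-44361459, all on the minus strand.
Chst4: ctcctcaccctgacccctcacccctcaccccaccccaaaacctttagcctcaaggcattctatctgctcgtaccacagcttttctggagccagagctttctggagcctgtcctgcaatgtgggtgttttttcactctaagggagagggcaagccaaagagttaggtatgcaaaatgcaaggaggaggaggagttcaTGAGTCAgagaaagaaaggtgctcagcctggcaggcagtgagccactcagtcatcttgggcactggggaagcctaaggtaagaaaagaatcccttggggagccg
Fut2: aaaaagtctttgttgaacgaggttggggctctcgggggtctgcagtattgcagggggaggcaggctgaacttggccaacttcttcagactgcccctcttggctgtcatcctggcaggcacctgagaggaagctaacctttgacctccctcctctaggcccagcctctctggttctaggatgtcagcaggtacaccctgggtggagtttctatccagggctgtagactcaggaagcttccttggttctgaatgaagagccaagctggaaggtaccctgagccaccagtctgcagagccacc
Fut9: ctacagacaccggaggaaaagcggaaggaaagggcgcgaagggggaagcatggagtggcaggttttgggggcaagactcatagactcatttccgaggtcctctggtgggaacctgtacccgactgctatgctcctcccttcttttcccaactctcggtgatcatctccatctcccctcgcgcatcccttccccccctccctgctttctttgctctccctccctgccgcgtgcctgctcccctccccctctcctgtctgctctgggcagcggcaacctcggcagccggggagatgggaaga
Both strands were searched for 6 words that do not overlap each other: a TATA box (letters TATAAA), a GC box (letters GGGCGG), an HNF1 half-site (letters GTTAAT), a forkhead core (letters TGTTTAC), an AP-1 site (letters TGAGTCA) and a CCAAT box, spelled as its name. AP-1 was added after the Chst4 sequence had been read. The Chst4 window holds 1 AP-1 match, the stretch in capitals, and the Fut2 and Fut9 windows hold none of the 6 words. No other of the 66 members with a window in the table holds the AP-1 word, so its share is 1.5%, against 4.5% of 27457 promoters of the same length. TATA boxes were found in 7.6% of members and 14.3% of all, HNF1 half-sites in 1.5% and 7.4%, and forkhead cores in 0 members and 3.8%. A GC box stood in 33 of the 66 members and 34.9% of all promoters, and a CCAAT box in 34.8% and 37.7%. A match of letters does not show that a factor binds.

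The libraries of the HIP group differed from each other in this gene family. Of the 64 tested members, HIP30 lay outside the wild-type range for 42 genes, with 23 above and 19 below, HIP2 for 34 genes, with 21 above and 13 below, and HIP3 for 30 genes, with 13 above and 17 below. As shares these are 65.6%, 53.1% and 46.9%, and over all tested genes they were 59.5%, 49.8% and 36.6%. HIP30 and HIP2 were both above the wild-type range for 14 members and both below it for 12, and HIP3 was inside the range for 8 of the first and 4 of the second. As shares of the members, both above was 21.9% and both below 18.8%, and over all tested genes these shares were 17.4% and 16.3%. With HIP3 inside the range, the shares were 12.5% and 6.25% of members and 9.73% and 9.26% of all tested genes. Gcnt3 and St3gal1 are among the 8, and Galnt6, St6gal1 and Fut2 among the 4. The summed level of the core step, 1086, 1285 and 1030.0 CPM (WT) against 1700.0, 1682 and 1105 CPM (HIP), was mostly that of Gcnt3. Without Gcnt3 the other 5 core genes summed to 161, 264 and 179 CPM (WT) against 108, 222 and 232 CPM (HIP), with HIP30 the lowest library and HIP2 and HIP3 inside the wild-type range. For fucosylation the sums were 425, 466 and 324 CPM (WT) against 259, 311 and 395 CPM (HIP), with HIP30 and HIP2 lowest and Fut2 as the member with the most reads, and for sialylation 1222, 1143 and 1092 CPM (WT) against 1400.5, 1275 and 1119 CPM (HIP).

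**Figure D3:**
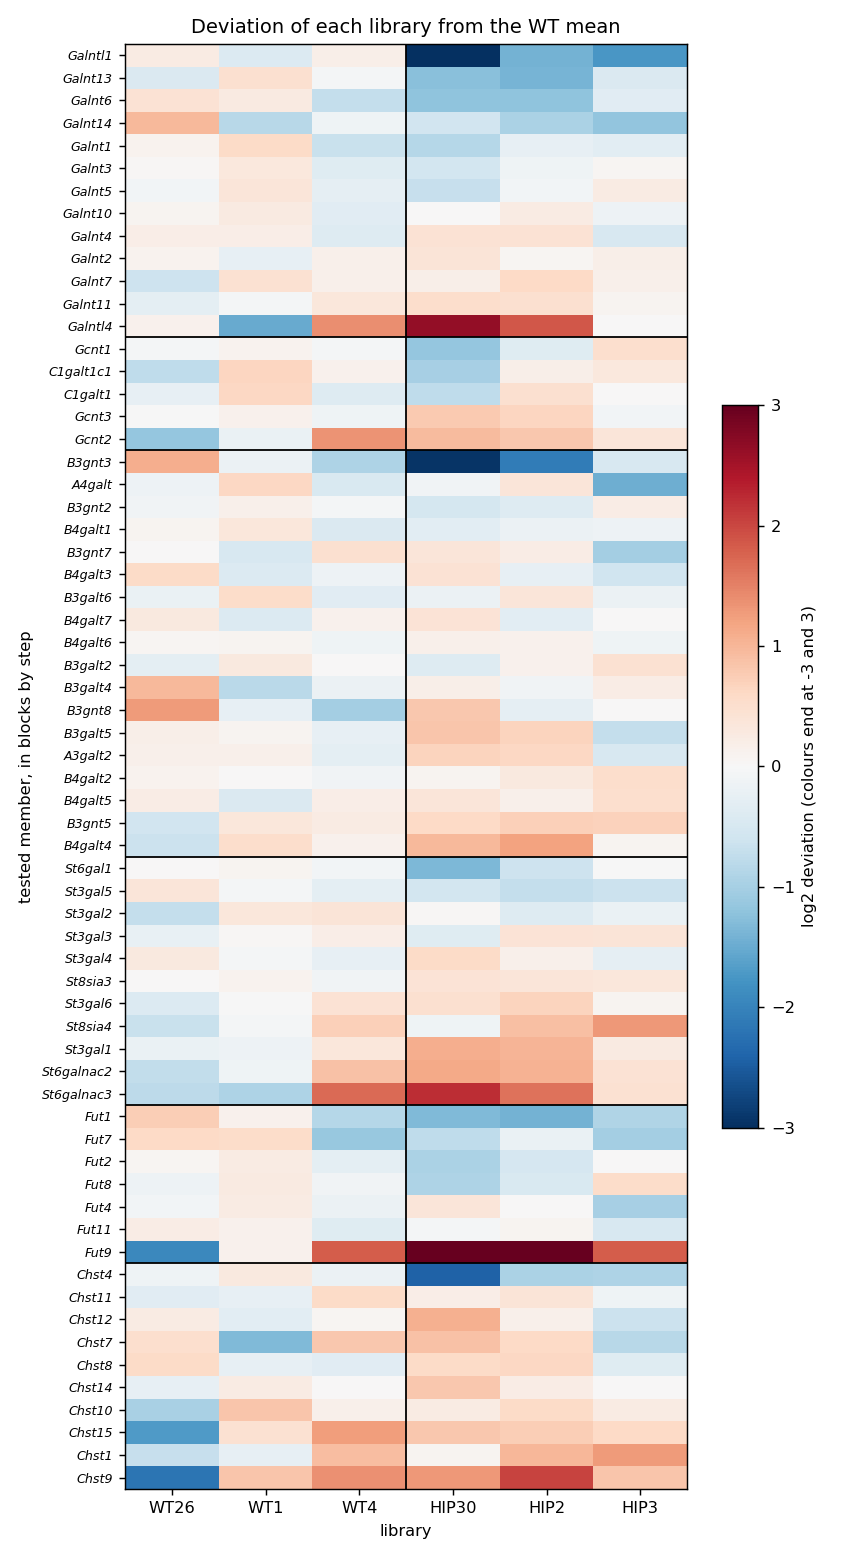
Log2 deviation of each library (x axis) from the mean of the 3 WT libraries for each of the 64 tested members (y axis, blocks by step), red for higher and blue for lower, with colours ending at -3 and 3. HIP30 and HIP2 have the same colour for Gcnt3, St3gal1 and Fut1, and HIP3 has the opposite colour to both for Gcnt1 and B3galt5.

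For some other cell types the marker sums of HIP30 and HIP2 lay outside the wild-type range and that of HIP3 inside it. For others they did not. Summed over 10 markers of dividing cells the level was 2150.5, 2971 and 1886 CPM (WT) against 98.7, 466 and 2693 CPM (HIP), so that HIP3 stood with the wild-type libraries and HIP30 and HIP2 far below them. In HIP30 6 of the 10, Mki67 and Top2a among them, were at 0 reads, and in each other library none was. All 10 had a negative difference, and 0 passed the test. The sum of 10 leukocyte markers was 443, 672 and 799 CPM (WT) against 2453, 2485 and 665 CPM (HIP), and its order rested on 1 gene, the macrophage perforin Mpeg1, at 0, 181 and 185 CPM (WT) against 1929, 1945 and 144 CPM (HIP). Without Mpeg1 the other 9 markers summed to 443, 491 and 614 CPM (WT) against 524, 539.5 and 521 CPM (HIP), with WT4 the highest and all HIP libraries inside the wild-type range. The 10 fibroblast markers summed to 1541, 2155 and 2368 CPM (WT) against 488, 850.5 and 1871 CPM (HIP). They had a negative difference in 10 of 10 genes, with 0 passing the test. For 4 of them (Dcn, Lum, Dpt and Mmp2) every HIP library, HIP3 included, was below every wild-type library. That is 40% of the list, where 4.27% of all tested genes were. In limma 6 of the 10 were lower at an unadjusted p under 0.05, where 3.26% of all tested genes were. Endothelial markers, 7 genes, summed to 147, 153 and 273 CPM (WT) against 165, 157 and 233 CPM (HIP). The 8 smooth muscle markers ran from 15.3 CPM in HIP30 to 69.7 CPM in WT4, and the 11 acinar markers from 27.5 CPM in WT1 to 137 CPM in HIP3. In WT26 9 of 9 islet markers were at 0 reads, including Ins1 and Ins2, and in HIP30 5. The part of these cell types in the transferase differences was not tested. WT4 and HIP3 had the highest islet sums, mostly from Ins1, whereas Sst stood highest in HIP30 and HIP2. Without WT4 and HIP3, limma still called 0 members, and the lowest adjusted p among them was 0.0786. In that fit 21 members (32.8%) and 21.5% of all tested genes had an unadjusted p under 0.05. Leaving out HIP3 alone brought that lowest adjusted p to 0.147.

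**Figure D4:**
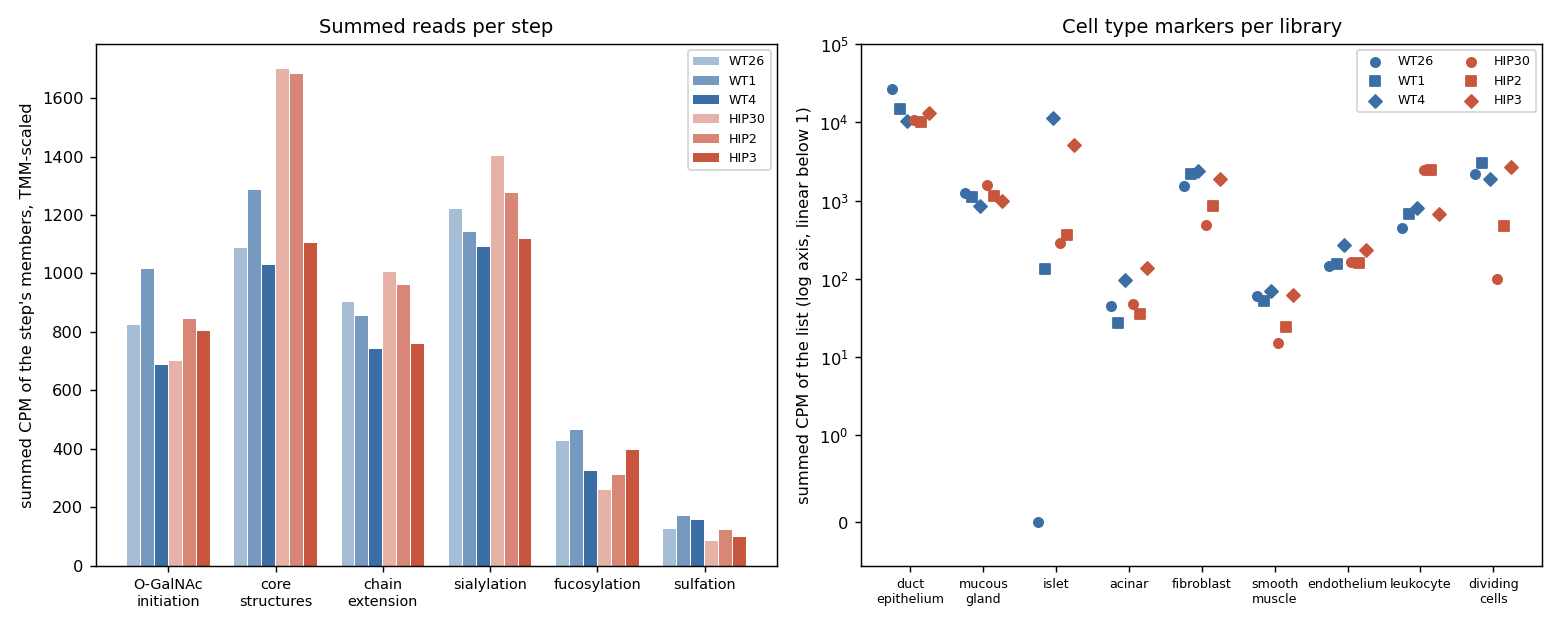
Left, summed TMM-scaled CPM of the listed members of each step (bars, 1 per library, y axis from 0), and right, summed CPM of 9 marker lists in each library (points, log axis that is linear below 1). The core bars of HIP30 and HIP2 are the highest and consist mostly of Gcnt3, and the dividing-cell sums are lowest in the same libraries. The islet sums stand highest in WT4 and HIP3, where they are mostly Ins1.

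The supply of sugar and sulfate donors showed no gene past the test. Of 28 listed genes 27 were measured and tested, 14 with a positive and 13 with a negative difference and a median of 0.028. Papss1, which makes the sulfate donor PAPS, stood at 512, 512 and 352 CPM (WT) against 283, 337 and 347 CPM (HIP). All HIP libraries were lower than all wild-type libraries, with a difference of -0.49 ± 0.21 (limma, adjusted p = 0.691), although HIP3 and WT4 were close. Papss1 was the only gene of this list whose groups did not overlap, 3.7% of the list against 9.54% of all tested genes. Papss2, the other PAPS synthase, stood at 253, 309.9 and 180.5 CPM (WT) against 61.3, 109 and 308 CPM (HIP), where HIP3 was as high as WT1 and the difference was -0.93 ± 0.53. Gne, the first enzyme of sialic acid synthesis, stood at 145, 180.4 and 221 CPM (WT) against 308, 291 and 199 CPM (HIP), a difference of 0.54 ± 0.24 with HIP3 inside the wild-type range. Galt, an enzyme of galactose use, differed by 1.18 ± 0.51.

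Of the 14 listed mucin genes 3 were analysed here and 2 were tested. Muc1, the membrane mucin of duct cells, stood at 345, 303 and 376 CPM (WT) against 539, 391 and 358 CPM (HIP), a difference of 0.31 ± 0.21 with HIP3 inside the wild-type range. Muc15 differed by -0.94 ± 0.72. The gel-forming mucins that most of these enzymes serve were not analysed here. Of 20 related transferases outside the symbol rule 13 were tested and 0 passed. B3galnt1, which makes globoside, stood at 22.8, 19.1 and 23.5 CPM (WT) against 37.9, 37.6 and 27.1 CPM (HIP), with every HIP library above every wild-type library and a difference of 0.64 ± 0.24. B4galnt3, which makes LacdiNAc, stood at 10.2, 15.4 and 14.7 CPM (WT) against 0.304, 4.88 and 14.3 CPM (HIP), where HIP30 was near 0 and HIP3 at the wild-type level. Of 14 genes of glycan trimming 12 were tested, 7 with a positive and 5 with a negative difference, and the lowest unadjusted p belonged to the fucosidase Fuca2 at -0.50 ± 0.27, the sialic acid lyase Npl at 1.22 ± 0.68 and the sialidase Neu1 at -0.40 ± 0.29.

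The 14 members under the filter were Galnt9, Galntl6, B3galt1, B3gnt4, B3gnt6, B3gnt1, St6galnac1, St8sia1, St8sia2, St8sia5, St8sia6, Chst3, Chst5 and Chst13. B3gnt4 had 3 reads in HIP30 and 0 in each other library. St6galnac1, the enzyme that makes sialyl-Tn, had 8, 0 and 7 reads (WT) against 2, 3 and 0 reads (HIP). St8sia6, which adds a second sialic acid to O-glycans, had 0, 0 and 4 reads (WT) against 25, 3 and 4 reads (HIP). B3gnt1 is a synonym of both B3gnt2 and B4gat1 in RefSeq and was put in no step. A count of 0 reads allows up to 3, and these genes were too low for the test.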

How the data were processed

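The authors deposited log2 expression values for 15679 gene symbols, in a separate table for each library. STAR, HTSeq, edgeR and limma and the build rn5 are named per the submitters' processing notes, with versions and strand not given in the sources used here. Per the labels' protocols, glands were recognised by morphology and laser-captured. The deposited log2 values are of CPM with a prior, and whole reads were recovered for 100% of values within 0.1 reads. TMM factors (trims of 30% and 5%) were computed from these reads. The filter asked for 0.61 CPM (10 reads at the median depth) in 3 libraries or more and for 15 reads in all libraries together, and 12102 genes passed. These were fitted in limma 3.58.1 (R 4.3.3) on log2(CPM + 2 reads of an average library), with eBayes and its trend option, and the Benjamini-Hochberg threshold was 0.05. The 4 rows of 2 duplicated symbols were left out. Only the limma fit was tried on simulated counts, with the library totals and TMM factors taken as known and the same dispersion for every gene. The recovery of reads and the scaling were not simulated.

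Members, lists and tests were chosen with earlier results of these data known. Named genes are, within each step, the 3 with the highest mean CPM, the 3 with the lowest unadjusted p and those whose groups do not overlap, which gave 29 members, and 11 more were named after their values were seen. For each other list the rule takes up to 3 genes by p and 3 by CPM, of which part is printed, and Papss2, B3gnt6, St6galnac1, St8sia6 and B3gnt4 were named after their values were seen. Reads of paralogs and of overlapping genes could not be separated. Of 78 symbols 75 are current in RefSeq's GRCr8 annotation and 3 are synonyms, and promoters are RefSeq's. Intervals for 0 reads cover counting error only. Figures were drawn with matplotlib 3.10.9.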

Additional observations from a re-analysis of the deposited data

How the results depend on the processing

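The count of genes called and of members called was 0 with the settings as reported and in all 17 alternatives, of which 16 were planned and 1, without WT4 and HIP3, was chosen after seeing the data. The alternatives changed the scaling, the filter, the pseudocount, the intensity trend, limma-voom in 2 forms, one of them weighting libraries by quality, a term for the numbers 26 and 30 against 1 to 4, and each library left out. The median difference of the members moved by less than the spread between libraries in each. Among 40 members and 12 pathway genes followed one by one, 9 changed sign in some alternative and 43 kept it. With the quality weights C1galt1 was at 0.032, and 17 members in place of 9 had an unadjusted p under 0.05, while the share over all tested genes went from 6.54% to 19.7%. Without WT4 and HIP3, Galnt5 was at -0.52, Gcnt1 at -0.78 and Chst11 at 0.59, with the same signs as with all libraries. With libraries left out in turn, C1galt1 ran from -0.37 to 0.25, C1galt1c1 from -0.55 to 0.24, Gcnt1 from -0.75 to 0.077, Galnt5 from -0.39 to 0.072, B3galt5 from -0.019 to 0.76, B4galt6 from -0.013 to 0.14, St3gal4 from -0.056 to 0.36, Fut8 from -0.69 to 0.042 and Chst11 from -0.015 to 0.44, and the cause was not tested. Of all 64 tested members 38 kept their sign in every alternative. The alternative with the highest number of sign changes was the one without HIP30, with 12 members. Under the stricter filter Galntl1 and Chst1 were not tested. No paired analysis was possible because the numbers in the titles are not shared between the groups. With 3 libraries a group the spread between libraries limits the members with many reads, and depth limits the 14 that were not tested.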
